A study of Mus musculus with 5 samples.

Results

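Epidermal lymphocyte-homing genes were followed through the cell types of mouse skin in 5 single-cell libraries. The set holds 7 genes, of 31053 listed in the deposited tables, and was chosen by symbol: the 4 chemokines Ccl20, Ccl27a, Cxcl14 and Cxcl16 and the 3 receptors Ccr6, Ccr10 and Cxcr6. All 7 symbols were found, each with 1 row. For each gene the cells that held its transcripts were located in every library, and its level was compared between libraries within a cell class.

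Chemokines are small secreted proteins that direct the movement of leukocytes through G protein-coupled receptors. CCL20, made by epithelia, is the ligand of CCR6, which marks IL-17-producing lymphocytes and other cells drawn to barrier surfaces. CCL27, the cutaneous T cell-attracting chemokine, is made by keratinocytes and binds CCR10. CXCL16 is made as a membrane-anchored protein that metalloproteases release, and it binds CXCR6, a receptor of resident and effector lymphocytes. CXCL14 is abundant in normal epithelia, and its receptor is less settled than those of the other ligands.

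The libraries were untreated epidermis and untreated dermis of wild-type C57BL/6 mice aged 10 weeks, dermis of wild-type C57BL/6 mice of 10 weeks after imiquimod on the ear for 5 days, epidermis of K5. Pp6fl/fl mice of 10 weeks without lesions, and whole skin with lesions of K5. Pp6fl/fl mice of 18 weeks. Imiquimod is a Toll-like receptor agonist that induces psoriasis-like inflammation. In K5. Pp6fl/fl mice, as the line is known from the study, Cre driven by the keratin 5 promoter removes floxed Ppp6c, the catalytic subunit gene of protein phosphatase 6, so the deletion is aimed at keratin 5-expressing epithelium. The titles mark the K5. Pp6fl/fl libraries by the letters N and L, read here as nonlesional and lesional, as known from the study. All 5 are given as C57BL/6, and only the imiquimod library as treated. The labels give 1 library per group and no number of animals, so no test between groups was possible, and every interval below covers counting error only. Age and tissue differ between the lesional and the nonlesional library and cannot be told apart from the lesion. Genotype, age, tissue and treatment all differ between the lesional and the imiquimod library and cannot be told apart either. The labels name a body site, the ear, only for the imiquimod treatment.

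After filtering, 898 cells of untreated epidermis, 2805 of nonlesional epidermis, 2579 of lesional skin, 519 of untreated dermis and 4776 of imiquimod dermis were kept. Deposited totals ran from 3020790 to 41258087 unique molecular identifiers (UMIs) per library, and median depth from 3402 to 8281 UMIs per kept cell. The lesional library shared 0 cell barcodes with the others, and the other pairs shared 1 to 27. Any technical difference behind this cannot be told apart from the lesion in comparisons with the lesional library. The lesional library also held cells with Xist and no Y-linked UMI beside cells with the reverse, so it mixed animals of both sexes. Ppp6c stood at 79.8 counts per 1000000 UMIs (CPM) in untreated, 71.9 in nonlesional and 50.7 in lesional keratinocytes. The sources used here do not give the deleted exons, so this 3′ tag checks no label. Of the keratinocytes, 489 came from untreated epidermis, 1551 from nonlesional epidermis, 423 from lesional skin and 10 from untreated dermis. Untreated epidermis held 4 Langerhans cells, too few for a level.

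The chemokine family is defined by its first cysteines, adjacent in CC chemokines and separated by 1 residue in CXC chemokines. The 4 ligands are shown by the 30 coding bases around that motif, from GENCODE vM21 transcripts on mm10, with the cysteine codons in capitals, because the motif sets the CC and CXC ligands apart and because Ccl27a and its near-copy Ccl27b cannot be separated by it.
Ccl20: aactacgacTGTTGCctctcgtacatacag
Ccl27a: agcactagcTGCTGTactcagctctataga
Ccl27b: agcactagcTGCTGTactcagctctataga
Cxcl14: gggtccaagTGTaagTGTtcccggaagggg
Cxcl16: gctggaagtTGTtctTGTgatcgtaccatt
The stretches lie at chr1:83117804-83117833 on the plus strand for Ccl20, chr4:41769930-41769959 on the minus strand for Ccl27a, chr4:42655516-42655545 on the plus strand for Ccl27b and chr11:70459115-70459144 on the minus strand for Cxcl16. The Cxcl14 stretch falls within chr13:56295903-56296110 on the minus strand and is split by an intron. Each is coding sequence. Cxcl16 has the longest coding sequence of the 4, 246 codons against 97 for Ccl20, 99 for Cxcl14 and 120 for Ccl27a. As background, CXCL16 carries a mucin-like stalk and a membrane anchor beside its chemokine domain.

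On mm10 the genes are spread over several chromosomes: Ccl20 (ENSMUSG00000026166) on chromosome 1, Ccl27a (ENSMUSG00000073888) on 4, Cxcl14 (ENSMUSG00000021508) on 13, Cxcl16 (ENSMUSG00000018920) and Ccr10 (ENSMUSG00000044052) on 11, Ccr6 (ENSMUSG00000040899) on 17 and Cxcr6 (ENSMUSG00000048521) on 9. Ccl27a, Cxcl16, Ccr10 and Cxcr6 each overlap a gene of the opposite strand: Il11ra1, Zmynd15, Cntnap1 and Fyco1.

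The ligands came mostly from keratinocytes in the epidermal libraries and from several cell types in the dermal ones. Keratinocytes held 93.0% of all Ccl20 UMIs in untreated epidermis, 93.8% in nonlesional epidermis and 94.7% in lesional skin. For Ccl27a these shares were 96.4%, 94.9% and 83.1%, with 12.8% in lesional fibroblasts. Cxcl14 was held by keratinocytes in both epidermal libraries (89.9% and 93.2%) and by fibroblasts in lesional skin (76.8%, against 22.2% in keratinocytes). Cxcl16 had the widest range of sources. Keratinocytes held 91.4% of it in untreated epidermis, 76.0% in nonlesional epidermis and 32.1% in lesional skin, while macrophages and monocytes held 31.4% in lesional skin, 42.0% in untreated dermis and 76.4% in imiquimod dermis.

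Ccr6 and Cxcr6 came mostly from lymphocytes. T cells and innate lymphoid cells (ILCs), taken as 1 class, held between 86.7% and 99.4% of Cxcr6 UMIs in the 5 libraries. They held 90.3% of Ccr6 UMIs in lesional skin and 91.7% in imiquimod dermis. Ccr10 was close to the detection limit, with 2 UMIs in untreated epidermis, 23 in nonlesional epidermis, 21 in lesional skin, 2 in untreated dermis and 26 in imiquimod dermis. T cells and ILCs held 14 of the 21 Ccr10 UMIs in lesional skin, 10 of 23 in nonlesional epidermis, where Langerhans cells held 7, and 11 of 26 in imiquimod dermis, where macrophages and monocytes held 10.

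**Figure D1:**
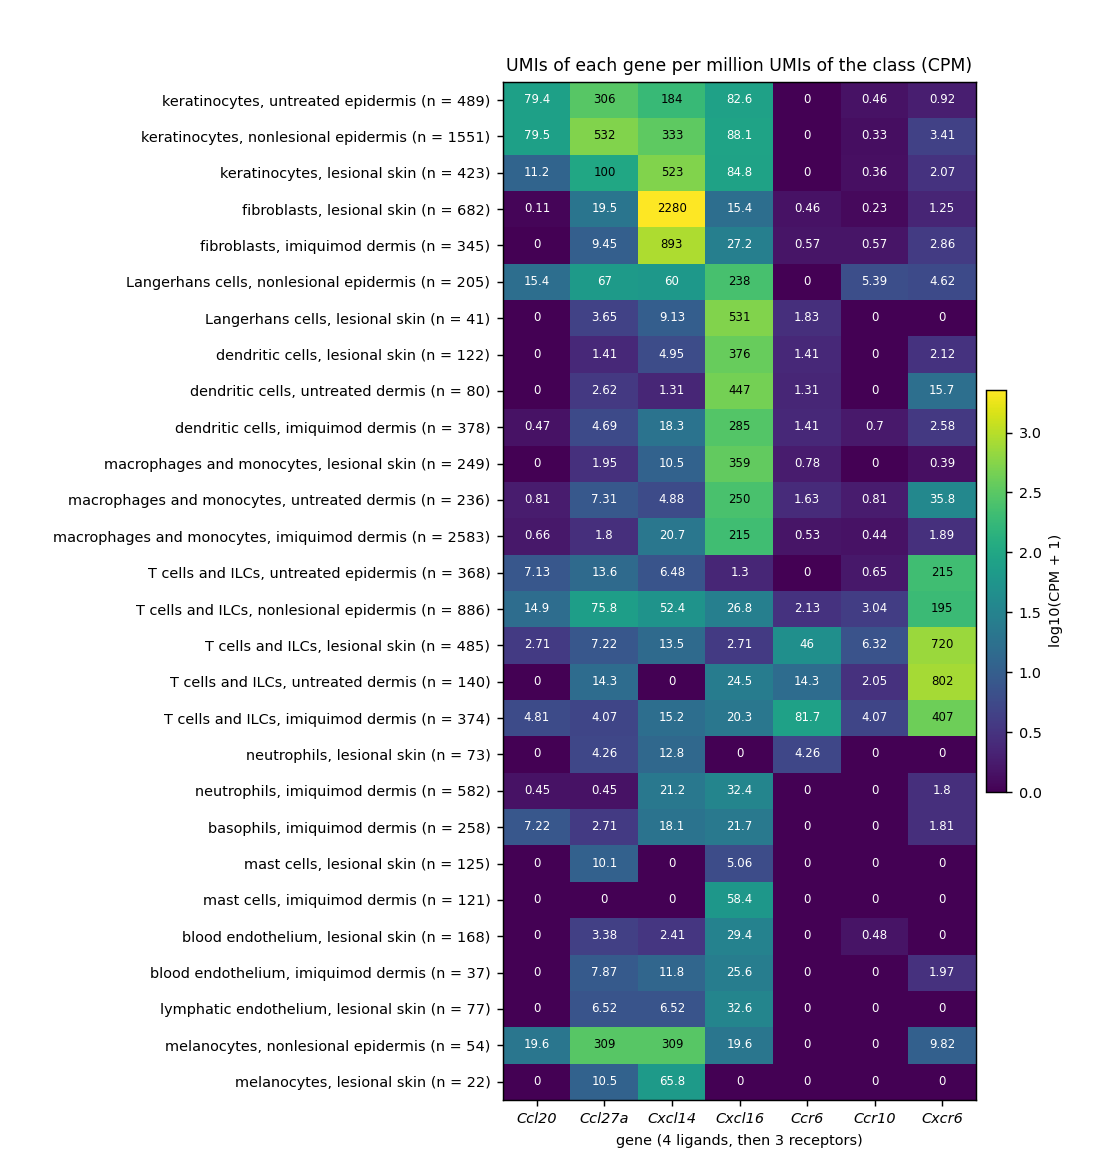
CPM of the 7 genes (columns, ligands then receptors) in each named cell class and library with at least 20 cells (rows, n cells). Colour is log10(CPM + 1), and the number is the CPM. Ccl20 and Ccl27a are highest in keratinocytes of the 2 epidermal libraries, Cxcl14 in fibroblasts (2280 in lesional skin), Cxcl16 in Langerhans cells, dendritic cells and macrophages, and Ccr6 and Cxcr6 in T cells and ILCs.

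Summed over keratinocytes, Ccl20, the ligand of Ccr6, stood at a like level in both epidermal libraries and lower in the lesional library. It measured 79.4 CPM in untreated epidermis (95% Poisson interval 68.0 to 92.1), 79.5 in nonlesional epidermis (75.1 to 84.1) and 11.2 in lesional skin (9.29 to 13.3). Few cells carried it: 6.13% of untreated, 14.9% of nonlesional and 5.91% of lesional keratinocytes had a UMI. With every cell thinned to 2000 UMIs, which removes shallower cells, these shares were 5.38%, 5.23% and 1.46%.

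Most Ccl20 transcripts sat in a handful of cells, a spread that the counting intervals do not cover. The top 2 of 489 untreated keratinocytes, 12 of 1551 nonlesional and 3 of 423 lesional keratinocytes held 50% of the class's Ccl20 UMIs. The 5 richest cells held 74.6%, 31.6% and 68.5% of them. Without the single richest cell, the level was 55.5 CPM in untreated, 71.4 in nonlesional and 8.14 in lesional keratinocytes. The other ligands were spread more widely: 50% of Ccl27a UMIs took 15, 127 and 22 cells, of Cxcl14 UMIs 19, 162 and 35 cells, and of Cxcl16 UMIs 23, 168 and 42 cells. In untreated dermis, 2 of 10 keratinocytes held all 40 keratinocyte UMIs of Ccl20, 29 of them in 1 cell. Imiquimod dermis, with no keratinocytes, had 40 Ccl20 UMIs in all.

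**Figure D2:**
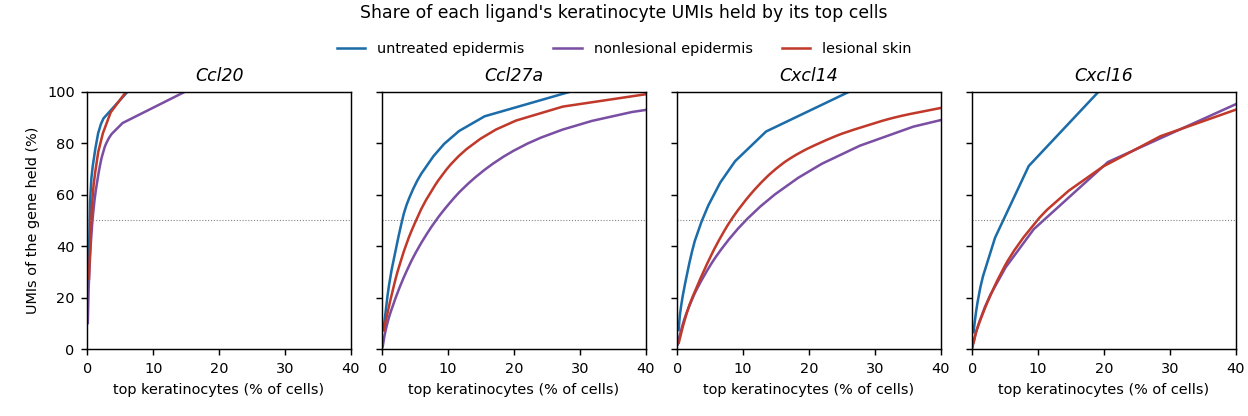
Cumulative share of each ligand's keratinocyte UMIs (y axis, %) against the share of keratinocytes taken from the richest down (x axis, % of cells, shown to 40%), for the 3 libraries with over 20 keratinocytes; the dotted line marks 50%. The Ccl20 curves rise most steeply, with 50% reached in 2, 12 and 3 cells.

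Ccl27a, the ligand of Ccr10, was the most abundant of the 4 ligands in keratinocytes of both epidermal libraries. It measured 306 CPM in untreated epidermis (283 to 330), 532 in nonlesional epidermis (521 to 544) and 100 in lesional skin (94.4 to 106). Shares of keratinocytes with a UMI were 28.6%, 68.9% and 42.8%, and 23.1%, 42.5% and 16.0% after thinning. Ccl27a and Ccl27b differ at 3 of 360 coding bases (99.2% identity), and reads from such copies can be lost or split in counting. Ccl27b had 20 UMIs in untreated epidermis, 79 in nonlesional epidermis and 13 in lesional skin, against 691, 8555 and 1338 for Ccl27a. The level is therefore that of the reads assigned to Ccl27a.

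Among keratinocyte clusters, which were formed without the 7 genes, Ccl27a was highest in the cluster led by Ccer2, Aldh3a1 and Adh7 (cluster 25). There it measured 1108 CPM in untreated and 1639 in nonlesional epidermis, with a UMI in 90.2% and 90.9% of cells. In the lesional cluster led by the hair-sheath genes Krt25 and Tchh (cluster 32) it measured 5.56 CPM. In the remaining clusters compared it ran from 49.7 to 578 CPM.

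Cxcl14 was higher in keratinocytes of each K5. Pp6fl/fl library than in those of untreated epidermis. It measured 184 CPM in untreated epidermis (166 to 202), 333 in nonlesional epidermis (324 to 343) and 523 in lesional skin (509 to 536). The intervals did not overlap. The cluster led by Lgr5 and Lhx2, a stem cell receptor and a hair-follicle factor (cluster 30), had the highest keratinocyte values, 717 CPM in untreated and 995 in nonlesional epidermis. The cluster led by Cst6 and Klk7, genes of the upper epidermis (cluster 14), had the lowest value of the clusters measured in each library, 13.8 CPM in untreated epidermis (2 UMIs), 69.9 in nonlesional epidermis and 61.4 in lesional skin.

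Fibroblasts reached the highest Cxcl14 levels of any named class, 2280 CPM in lesional skin and 893 in imiquimod dermis. They were not the largest source in imiquimod dermis. There, 31 cells of an unnamed cluster led by cartilage genes held 3461 Cxcl14 UMIs, against 3118 in fibroblasts. In fibroblasts Cxcl14 was 2.55-fold higher in the lesional library (2.46 to 2.65), and it was the only member of 3 measured that was called in this class. Called means that the 95% interval of the ratio lay wholly beyond 1.5-fold, with at least 10 UMIs in all and at least 10 CPM in either library. Of all genes measured in fibroblasts, 46.8% were called in this comparison, 37.4% as higher. Different clusters made up the class, cluster 16 (Pi16, Dpt) with 561 of 682 lesional and cluster 21 (Saa3, Ccl19) with 315 of 345 imiquimod fibroblasts. In imiquimod dermis 571 of 3118 fibroblast UMIs sat in 1 cell, and the level was 736 CPM without it. Myeloid transcripts moved with the library too, Il1b at 622 CPM in imiquimod and 2.16 in lesional fibroblasts and Ccl3 at 354 and 2.28, and their part in the result was not tested. Lesional fibroblasts with Xist and no Y-linked UMI measured 1150 CPM (n = 163 cells) and those with Y-linked and no Xist UMIs 2639 (n = 365 cells). The ratio to imiquimod dermis was no longer called with the former, nor with each cell assigned to a class by its own markers. Ccl27a was 19.5 CPM in lesional and 9.45 in imiquimod fibroblasts, and Cxcl16 15.4 and 27.2; neither was called.

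Cxcl16, the ligand of Cxcr6, was nearly level across keratinocytes pooled by library and highest in antigen-presenting cells. Keratinocytes measured 82.6 CPM in untreated epidermis, 88.1 in nonlesional epidermis and 84.8 in lesional skin, with overlapping intervals. Langerhans cells, the epidermal dendritic cells, measured 238 CPM in nonlesional epidermis (212 to 266, n = 205 cells) and 531 in lesional skin (472 to 596, n = 41 cells). Dendritic cells measured 447 CPM in untreated dermis, 285 in imiquimod dermis and 376 in lesional skin. Macrophages and monocytes measured 250, 215 and 359 CPM in the same order. Lesional Langerhans cells with Xist and no Y-linked UMI measured 423 CPM (n = 23 cells), and those with the reverse 724 CPM (n = 14 cells). For lesional dendritic cells these values were 291 CPM (n = 39 cells) and 480 CPM (n = 48 cells).

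Against imiquimod dermis, Cxcl16 was 1.67-fold higher in lesional macrophages and monocytes (1.56 to 1.79) and was called, 1 of 2 members measured, with 35.9% of all genes called and 30.3% called higher. The call was lost after thinning to 2000 UMIs and with a 2-fold threshold, each with 0 of 2 called. Cxcl14 was 10.5 CPM in lesional and 20.7 in imiquimod macrophages and was not called. Restricted to lesional macrophages with Xist and no Y-linked UMI, Cxcl16 measured 306 CPM (n = 44 cells) and was not called. Lesional macrophages were mostly of clusters 0 and 10 (103 and 69 of 249) and imiquimod macrophages of clusters 3 and 4 (1125 and 777 of 2583).

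From untreated to imiquimod dermis, Cxcl16 was not called in macrophages and monocytes, with a ratio of 0.862 (0.768 to 0.971), nor in dendritic cells, with a ratio of 0.639 (0.566 to 0.722). In macrophages, 2 of 3 members were called (26.1% of all genes): Cxcl14 was higher (4.88 to 20.7 CPM) and Cxcr6 lower (35.8 to 1.89 CPM). In dendritic cells, 2 of 3 were called (15.4% of all genes): Cxcl14 was higher (1.31 to 18.3 CPM) and Cxcr6 lower (15.7 to 2.58 CPM). Markers of other cell types were measured beside these low levels. Imiquimod macrophages held 6 fibroblast markers at 0.864% to 1.81% of the fibroblast level and Cxcl14 at 2.32% of it. The unnamed cartilage-led cluster of this library held 3461 Cxcl14 UMIs, and its genes were not measured in macrophages. The fibroblast markers alone therefore do not give the background for Cxcl14. Untreated macrophages held 6 T cell markers at 2.94% to 7.84% of the T cell level and Cxcr6 at 4.46% of it, and 9 of the 12 dendritic cell UMIs of Cxcr6 in untreated dermis were in 1 cell. The part of free RNA in these calls was not tested. After thinning to 2000 UMIs 0 members were called in either class, and with a 2-fold threshold 1 of 3 was called in macrophages and monocytes. Most untreated macrophages were of cluster 0 (212 of 236), led by Ccl8, Folr2 and Cd163.

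Between nonlesional and untreated epidermis, 2 of the 4 ligands measured in keratinocytes were called, both higher, where 5.04% of all genes were called in either direction and 3.05% as higher. Ccl27a was 1.74-fold higher (1.61 to 1.89) and Cxcl14 1.82-fold higher (1.64 to 2.02) in nonlesional epidermis. With a 2-fold threshold 0 of 4 were called. The ratio was 1.0 for Ccl20 (0.853 to 1.18) and 1.07 for Cxcl16 (0.912 to 1.25). For Ccl20, 2 untreated keratinocytes held 50% of the UMIs, and clusters differed in both directions, as given below. The receptors had too few keratinocyte UMIs to be measured.

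Depth and makeup moved with this comparison. Median depth was 2196 UMIs in untreated and 9710 in nonlesional keratinocytes. The cluster led by Krt2 and Krt10, suprabasal keratins (cluster 13), held 290 of 489 untreated keratinocytes, and the cluster led by Tgm3 and Krt15 (cluster 15) 852 of 1551 nonlesional ones. In untreated epidermis 291 keratinocytes had under 0.1% mitochondrial UMIs. Without such cells Cxcl14 was 1.79-fold higher and still called, and Ccl27a 1.4-fold higher (1.29 to 1.53) and not called, so that 1 of 4 was called, with 5.54% of all genes.

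Within clusters the ligands differed in different directions. In cluster 15, with 2 of 4 ligands called and 3.15% of all genes, Ccl27a was 55.2 CPM in untreated and 378 in nonlesional epidermis, 6.84-fold higher (4.98 to 9.69), and Ccl20 was 11.6 and 56.8 CPM, on 8 and 514 UMIs. In cluster 25, with 2 of 4 called and 3% of all genes, Ccl20 ran the other way, 310 CPM in untreated and 91.1 in nonlesional epidermis, with 53 of the 133 untreated UMIs in 1 cell, and 194 CPM without it. Cxcl14 was higher in nonlesional epidermis in cluster 25 (46.6 and 212 CPM) and in cluster 13 (160 and 617 CPM), where it was the 1 of 4 ligands called, with 1.34% of all genes. In cluster 14, Ccl20 had 1 UMI in 32 untreated cells and 247 UMIs in 106 nonlesional cells, and it was the 1 of 4 called, with 2.72% of all genes. No ligand was called in cluster 28, of cycling cells, or in cluster 30, where 2% and 2.12% of all genes were.

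**Figure D3:**
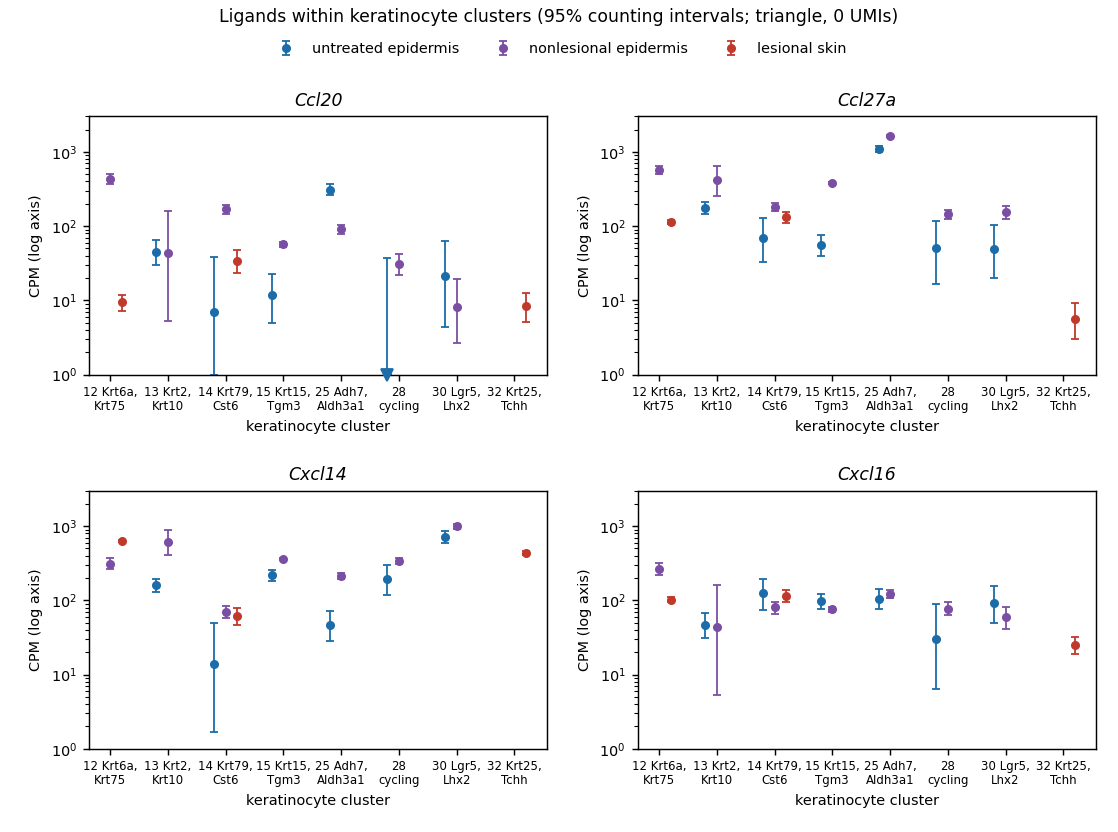
CPM (log axis) of the 4 ligands in 8 keratinocyte clusters named by leading genes, in each library with at least 20 cells of the cluster; bars are 95% Poisson intervals and a triangle marks 0 UMIs. Ccl27a peaks in cluster 25 (1108 and 1639), and Cxcl14 in cluster 30 (717 and 995).

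Between lesional skin and nonlesional epidermis, 3 of the 4 ligands were called in keratinocytes, 2 lower and 1 higher, where 38.8% of all genes were called. Ccl20 was 7.11-fold lower in lesional keratinocytes (5.91 to 8.63) and Ccl27a 5.31-fold lower (4.99 to 5.66). Cxcl14 was 1.57-fold higher (1.51 to 1.63), and the Cxcl16 ratio was 0.963 (0.885 to 1.05). Lesional keratinocytes were mostly of the cluster led by the stress keratin Krt6a (cluster 12, 266 of 423).

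The lower Ccl20 and Ccl27a were also seen within cluster 12, which had 29 nonlesional cells and where all 4 ligands and 15.3% of all genes were called. Ccl20 was 435 CPM there in nonlesional and 9.37 in lesional skin, with 94 of the 189 nonlesional UMIs in 1 cell and 233 CPM without it. Ccl27a was 578 and 113 CPM, Cxcl16 265 and 102, and Cxcl14 311 and 635. Cxcl16 was thus called lower within this cluster, though nearly level over all keratinocytes. In cluster 14, Ccl20 was 168 CPM in nonlesional and 33.7 in lesional skin, where all 34 UMIs came from 1 of 37 cells, and Cxcl14 was 69.9 and 61.4 CPM. Ccl20 was the 1 of 4 ligands called there, with 18% of all genes. Lesional keratinocytes with Xist and no Y-linked UMI had more Ccl27a (158 against 67.9 CPM) and Cxcl14 (660 against 387 CPM) than those with the reverse, and a like level of Ccl20 (12.5 and 11.4 CPM).

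Ccr6, the receptor of CCL20, was measured mainly in T cells and ILCs of inflamed skin. No UMI was seen in 368 T cells and ILCs of untreated epidermis, where 3 counts would give 1.95 CPM. By the same floor of 3 counts, 0 of 368 allows a share of cells with a UMI of up to 0.815%, which does not limit the share of cells expressing Ccr6. The level was 2.13 CPM in nonlesional epidermis (7 UMIs), 14.3 in untreated dermis (7 UMIs), 46.0 in lesional skin (37.5 to 55.9) and 81.7 in imiquimod dermis (71.3 to 93.2). A UMI was found in 0.451%, 4.29%, 14.2% and 27.8% of cells, and in 0.387% of macrophages and monocytes of imiquimod dermis, a class at a median depth of 7671 UMIs against 5233 in its T cells and ILCs.

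Cxcr6, the receptor of CXCL16, was the most abundant receptor in T cells and ILCs of every library. It measured 802 CPM in untreated dermis (724 to 885), 720 in lesional skin (685 to 756), 407 in imiquimod dermis (383 to 432), 215 in untreated epidermis (192 to 239) and 195 in nonlesional epidermis (180 to 211). The intervals of the first pair and of the last pair overlapped, and imiquimod dermis lay apart from both. Shares of cells with a UMI were 58.6%, 68.7%, 47.6%, 51.9% and 42.6% in that order, against 3.22% of nonlesional keratinocytes.

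Ccr10, the receptor of CCL27, stayed between 0.648 and 6.32 CPM in T cells and ILCs, under the 10 CPM needed for a comparison. In lesional skin it had 14 UMIs in 10 lymphocytes, all in the cluster of conventional alpha-beta T-like cells (13 CPM), with 5 of the UMIs in 1 cell. Ccr6 was found in 0 and Cxcr6 in 3 of those 10 cells. Lesional T cells and ILCs with Xist and no Y-linked UMI held 11 of the 14 Ccr10 UMIs (n = 160 cells). Those with the reverse held 2 (n = 172 cells). Xist was among the leading genes of that conventional alpha-beta T-like cluster.

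Across T cells and ILCs, untreated epidermis was lower than untreated dermis for Cxcr6, with a ratio of 0.268 (0.231 to 0.311), and for Cxcl16, on 2 and 12 UMIs. These were the 2 called of 3 members measured, with 19.7% of all genes called and 8.2% called lower. In untreated dermis 6 macrophage genes stood in T cells and ILCs at 1.45% to 12.5% of the macrophage level and Cxcl16 at 9.84% of it, and the part of macrophage RNA was not tested. After thinning to 2000 UMIs 1 member was called. From untreated to imiquimod dermis 3 of 5 were called, with 14.5% of all genes. Ccr6 was 5.71-fold higher (2.72 to 14.4), Cxcl14 at least 2.47-fold higher on 41 UMIs against 0, and Cxcr6 lower, with a ratio of 0.508 (0.452 to 0.571). In imiquimod dermis 6 fibroblast genes stood in T cells and ILCs at 0.535% to 1.91% of the fibroblast level and Cxcl14 at 1.70% of it, and the part of fibroblast RNA was not tested. Nor was the part of RNA from the unnamed cartilage-led cluster, another Cxcl14 source in this library. The Ccr6 ratio rests on 7 UMIs in untreated dermis, and after thinning to 2000 UMIs only 1 of 3 members measured, lower, was called. With a 2-fold threshold 1 of 5 was called. These comparisons share the untreated dermis library. There, 109 of 140 T cells and ILCs were of an unnamed sub-cluster, with 0 cells in untreated epidermis and 4 in imiquimod dermis. The ratios therefore need not be within the same cell type.

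Between nonlesional and untreated epidermis, Cxcr6 in T cells and ILCs was not called, with a ratio of 0.909 (0.795 to 1.04). The 3 members called of 5 were the ligands Ccl27a, Cxcl14 and Cxcl16, all higher (5.38% of all genes, 3.87% as higher). Keratinocyte RNA moved with them: Krt5, Krt10, Krt14, Krt15, Ly6d and Perp stood in T cells and ILCs at 17.2% to 23.2% of their keratinocyte level in nonlesional epidermis, at 2.97% to 4.59% in untreated epidermis and at 0.842% to 2.03% in lesional skin. In nonlesional T cells and ILCs, Ccl20 stood at 18.8%, Ccl27a at 14.2%, Cxcl14 at 15.7% and Cxcl16 at 30.4% of the keratinocyte level. The nonlesional Langerhans cells likewise held these 6 genes at 15.5% to 20.6% of the keratinocyte level, Ccl20, Ccl27a and Cxcl14 at 19.4%, 12.6% and 18.0%, and Cxcl16 at 270%.

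Between lesional skin and nonlesional epidermis all 6 members measured in T cells and ILCs were called, with 36.9% of all genes. Ccr6 was 21.6-fold higher (10.1 to 55.1, 7 nonlesional UMIs) and Cxcr6 3.69-fold higher (3.37 to 4.05). The 4 ligands were lower, as were the 6 keratinocyte genes given above. Of the nonlesional cells, 873 of 886 were dendritic epidermal gamma-delta T-like. Of 485 lesional cells, 256 were conventional alpha-beta T-like, 140 type 17 gamma-delta T-like and 66 regulatory T-like. These ratios therefore need not be within the same cell type. Against imiquimod dermis, lesional T cells and ILCs had 1.77-fold more Cxcr6 (1.64 to 1.91), and less Cxcl16, on 6 and 55 UMIs. These were the 2 called of 4 members, with 35% of all genes called. In imiquimod dermis 6 macrophage genes stood in T cells and ILCs at 6.76% to 14.8% of the macrophage level and Cxcl16 at 9.45% of it, and the part of macrophage RNA was not tested. The Ccr6 ratio was 0.563 (0.441 to 0.715) and was not called. With a 2-fold threshold 1 of 4 was called, lower.

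**Figure D4:**
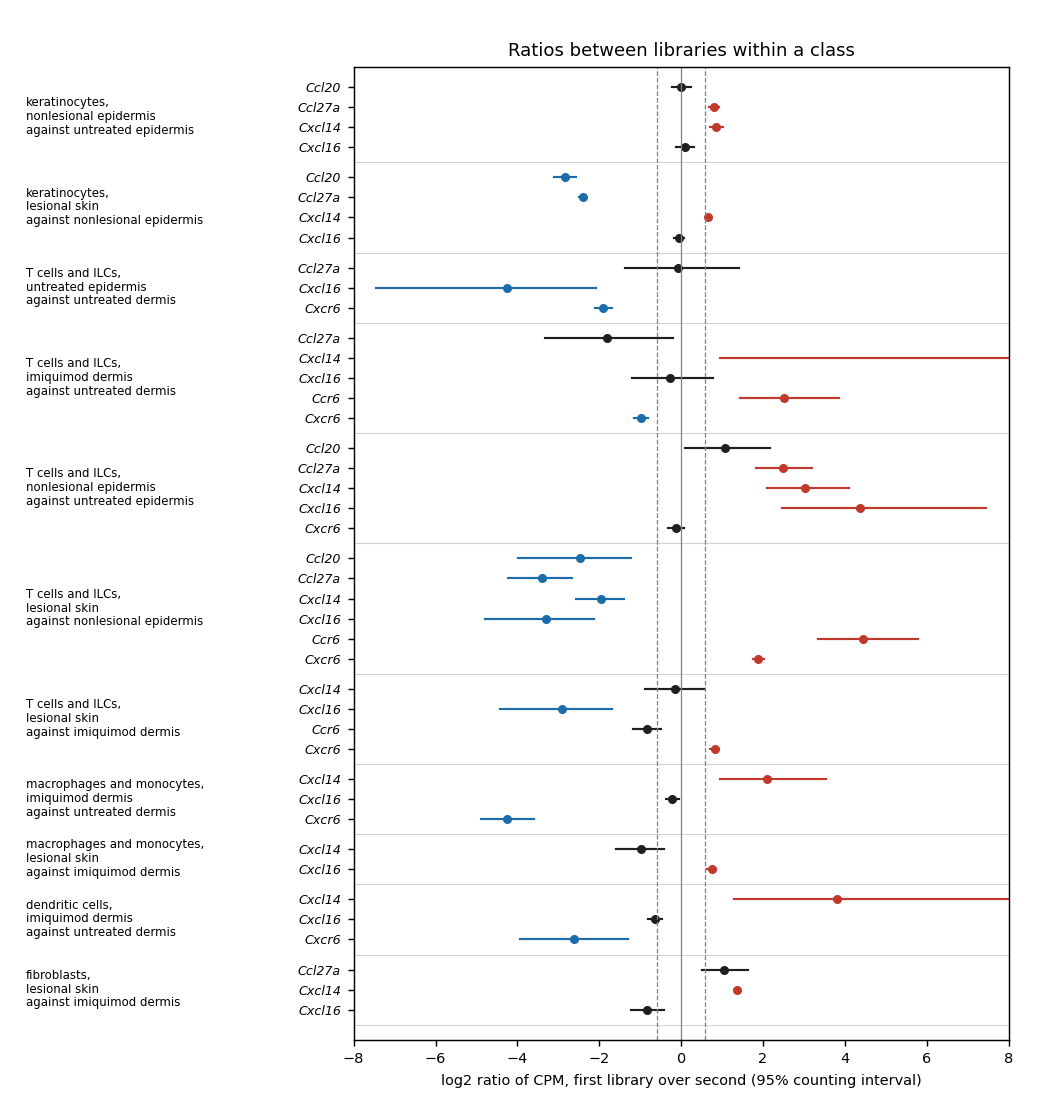
Log2 ratio of CPM between libraries (x axis) for each member measured in each of 11 comparisons (rows); points are ratios and lines 95% counting intervals, cut at the axis ends, with dashed lines at 1.5-fold. Red is called higher in the first library, blue called lower, black not called; Cxcl14 in T cells and ILCs of imiquimod dermis has 0 UMIs in the second library and so no point. The 2 receptors are higher in lesional than in nonlesional T cells and ILCs while the 4 ligands are lower. These libraries differ in lymphocyte kinds.

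The lymphocytes of the libraries were of different kinds, with different receptor levels. Epidermal T cells were nearly all dendritic epidermal gamma-delta T-like cells, 362 of 368 in untreated and 873 of 886 in nonlesional epidermis, with Cxcr6 at 219 and 192 CPM. They had 0 and 7 Ccr6 UMIs. The 3 of 5 members called between them were again the ligands Ccl27a, Cxcl14 and Cxcl16, with 5.42% of all genes. Of the 140 T cells and ILCs of untreated dermis, 109 fell in an unnamed sub-cluster led by Il5 and Ccr8, with Cxcr6 at 980 CPM and Ccr6 at 18.4 CPM. In imiquimod dermis 68 cells fell in another unnamed sub-cluster, with Cxcr6 at 201 CPM and Ccr6 at 57.5 CPM (12 UMIs).

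Type 17 gamma-delta T-like cells, lymphocytes that make IL-17, had the highest Ccr6 of any subset in both inflamed libraries. Ccr6 was 126 CPM in imiquimod dermis (n = 127 cells, 50.4% with a UMI) and 93.7 CPM in lesional skin (n = 140 cells, 26.4%). The ratio was 0.743 (0.535 to 1.02). Cxcr6 in these cells was 638 CPM in imiquimod dermis and 1296 CPM in lesional skin, 2.03-fold higher (1.84 to 2.24), with a UMI in 87.4% and 92.1% of cells. Of 4 members measured 2 were called in this subset, with 28.9% of all genes. The cells of the 2 libraries formed separate sub-clusters, and median depth was 9185 UMIs in imiquimod dermis and 4016 in lesional skin. Trdc was found in 55.9% of the imiquimod and 82.1% of the lesional cells, and Trac in 37.0% and 18.6%. Cd163l1 was found in 34.6% and 67.1%, and Il22 in 74.0% and 2.86%. The groups differed in these genes, and the ratios need not be within the same cell type.

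Sub-clusters named regulatory T-like from the fixed markers differed more in Cxcr6, but the lesional cells carried that name poorly. Cxcr6 was 101 CPM in imiquimod dermis (n = 113 cells) and 909 CPM in lesional skin (n = 66 cells), 9.0-fold higher (6.85 to 12). It was the 1 of 4 members called, with 19.6% of all genes. The lesional cells, led by Ctla4, Tff1 and Ccr1, had Foxp3 in 21.2%, Il17a in 40.9% and Trdc in 28.8% of cells. The imiquimod cells had Foxp3 in 40.7%, Il17a in 7.08% and Trdc in 7.08%, so the groups matched poorly in these genes. The name is doubtful for the lesional group, and the ratio need not be within the same cell type. Ccr6 was 54.6 CPM in the imiquimod and 22.1 in the lesional cells. Conventional alpha-beta T-like cells of lesional skin measured 30.7 CPM for Ccr6 and 374 for Cxcr6 (n = 256 cells), and NK-like cells of imiquimod dermis 0 and 8.48 CPM (n = 40 cells).

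**Figure D5:**
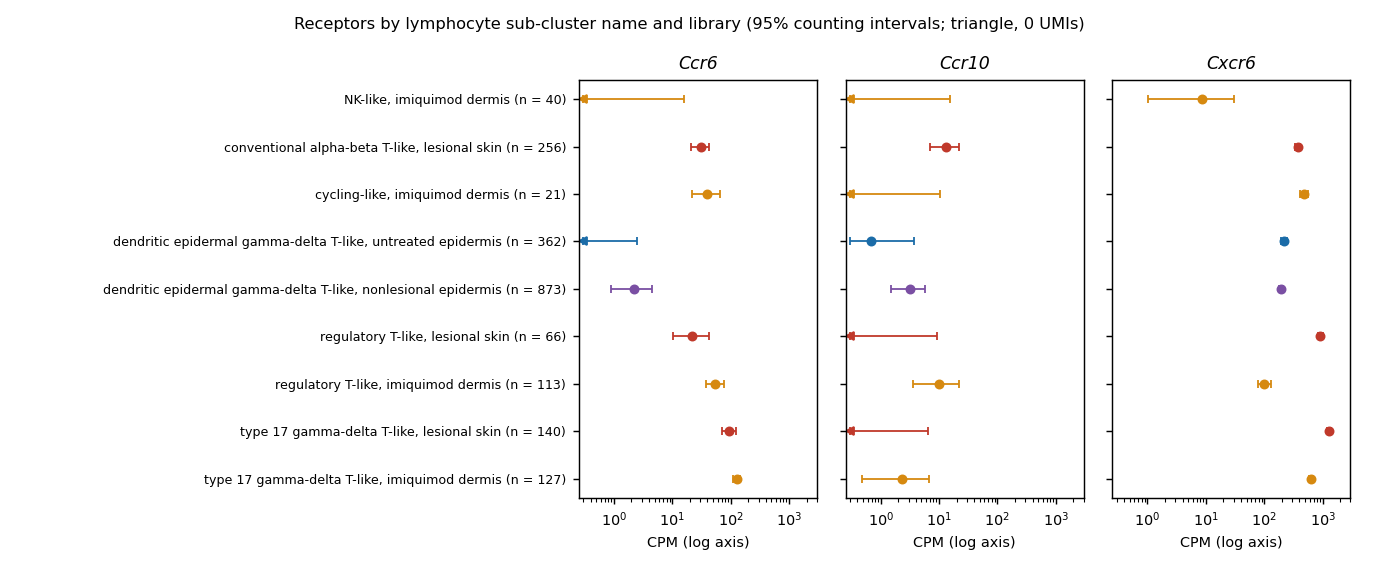
CPM (log axis) of the 3 receptors in named lymphocyte groups of at least 20 cells (rows, n cells), coloured by library. Bars are 95% Poisson intervals and triangles mark 0 UMIs. Unnamed sub-clusters are not shown. Ccr6 is highest in type 17 gamma-delta T-like cells (126 and 93.7), and Cxcr6 runs from 8.48 in NK-like cells to 1296 in lesional type 17 gamma-delta T-like cells.

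The 2 receptors were often found in the same cell. In imiquimod dermis, 77.9% of T cells and ILCs with a Ccr6 UMI (81 of 104) also had Cxcr6, against 35.9% of the rest. In lesional skin the shares were 87.0% (60 of 69) and 65.6%. Among imiquimod type 17 gamma-delta T-like cells, 63 of 64 Ccr6-positive cells had Cxcr6, against 48 of 63 without Ccr6. Il17a was found in 34.8% of Cxcr6-positive and 7.65% of Cxcr6-negative imiquimod T cells and ILCs, and in 24.6% and 5.26% of the lesional ones. Depth moved with these shares, at a median of 10089 UMIs in Ccr6-positive and 4314 in Ccr6-negative imiquimod cells, and its part was not tested.

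Other genes of these pathways were counted from lists of related chemokines, trafficking receptors, retention genes, type 17 genes, NF-kB and IL-17 response genes, and genes of CXCL16 shedding and chemokine scavenging. Of the type 17 genes measured in T cells and ILCs, 12 of 14 were higher and 1 lower in lesional skin than in nonlesional epidermis, with a median log2(CPM + 5) difference of 2.84 against -0.14 over all genes, of which 36.9% were called. Il17a was 712 and 7.31 CPM there. From untreated to imiquimod dermis 4 of 14 were higher and 1 lower (median 0.07, all genes -0.29, 14.5% of them called), with Il22 at 8.18 and 3042 CPM, Il17f at 32.7 and 2328 CPM and Il17a at 92.0 and 688 CPM. Lesional cells had 4 of 14 higher and 2 lower than imiquimod cells (median 0.39, all genes 0.42, 35% of them called), with Il22 at 13.1 against 3042 CPM. The lymphocyte kinds differed between these libraries, so the counts need not be within the same cell type.

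Of the other trafficking receptors, 7 of 8 measured were lower and 1 higher in T cells and ILCs of untreated epidermis than of untreated dermis (median -3.76, all genes 0.32, 19.7% of them called). Ccr2 had 0 UMIs in epidermis and measured 221 CPM in dermis, and Gpr183 measured 0.648 and 237 CPM, while Cx3cr1 was higher in epidermis (227 and 18.4 CPM). In the same comparison Itgae, the integrin chain that binds E-cadherin on keratinocytes, was 449 CPM in epidermis and 127 in dermis. Itgae was taken from the list of retention genes, and the others of that list are not given here. From untreated to imiquimod dermis 6 of 9 receptors were lower and 0 higher (median -1.19, all genes -0.29, 14.5% of them called), and in lesional skin against nonlesional epidermis 8 of 9 were higher and 0 lower (median 3.07, all genes -0.14, 36.9% of them called). Here too the lymphocyte kinds differed between the libraries compared.

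In lesional keratinocytes, genes of shedding and scavenging included both directions, 3 of 5 higher and 1 lower than in nonlesional ones (median 0.92, all genes 0.23, 38.8% of them called). Adam10, the protease that releases CXCL16 from the membrane, was 51.7 against 18.0 CPM, and the scavenging receptor gene Ackr4, whose product takes up CC chemokines, was 9.46 against 105 CPM. In lesional macrophages and monocytes 3 of 3 were higher than in imiquimod dermis (median 1.15, all genes 0.44, 35.9% of them called), Adam17 at 90.9 and 33.1 CPM among them. Of the NF-kB and IL-17 response genes, 2 of 17 were higher and 1 lower in lesional keratinocytes (median 0.16, all genes 0.23, 38.8% of them called), with the lipocalin gene Lcn2 at 83.5 against 4.72 CPM and the NF-kB inhibitor gene Nfkbia at 638 against 1093 CPM. Other lymphocyte-attracting chemokines in these cells were 3 of 5 higher and 2 lower (median 2.11, all genes 0.23, 38.8% of them called). They included Cxcl10, a CXCR3 ligand, at 180 against 27.0 CPM, and Xcl1 at 0.0901 against 83.7 CPM. Xcl1 measured 3530 CPM in nonlesional T cells and ILCs, and the part of lymphocyte RNA in the keratinocyte value was not tested.

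Over the 28 class and library units of at least 20 cells, each member's pattern was set against 7343 genes by Pearson's r of log2(CPM + 5), as a description over units that share libraries and depth. Ccl20 was most like Serpinb7 (r = 0.954), Edn2 and Oas1f, Ccl27a like Cbs (r = 0.95), Acer1 and Abhd12b, and Cxcl14 like Gas1 (r = 0.945), Sema5a and Sdc2. Cxcl16 was most like Cst3 (r = 0.876), H2-Eb1 and H2-DMb1, genes of antigen-presenting cells. Ccr6 was most like Cd6 (r = 0.947), Actn2 and Gzma, and Cxcr6 like Sh2d2a (r = 0.982), Trac and Cd163l1. Ccr10 was under the level set for this measure. Among the members, Ccl20 and Ccl27a (r = 0.889) and Ccr6 and Cxcr6 (r = 0.750) were most alike, while r was -0.08 for Ccl20 with Ccr6 and -0.27 for Cxcl16 with Cxcr6, whose ligand and receptor lie in different cells.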

How the data were processed

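The data were droplet 3′ single-cell RNA libraries of enzyme-digested skin with dead cells removed by sorting, per the labels' protocols. The deposited values are UMI counts per gene and barcode; the submitters' processing notes name CASAVA, Cell Ranger and mm10, and the file headers give software version 3.0.2. No source used here states how barcodes were called as cells. Barcodes with at least 200 genes and under 20% mitochondrial UMIs were kept, doublets were removed by simulated-neighbour scores, and cells were clustered without the 7 members (scanpy 1.11.5, 2000 variable genes, 30 components, Leiden resolution 1) and named from fixed marker lists. Counts were summed per class and library of at least 20 cells and divided by the summed UMIs (CPM). Levels have exact Poisson, shares exact Clopper-Pearson and ratios conditional binomial 95% intervals, for counting error only. With 1 library per group no p-value was computed. Calls were tested on counts simulated from a pooled profile without spread between cells. That test does not cover genes whose UMIs sit in a few cells. The 7 members, all in every class and library of at least 20 cells, were the named genes, with up to 4 called genes per pathway list and the 3 genes most like each member. Members and lists were chosen with earlier results of these data known. Alternatives varied filters, doublets, resolution, class assignment, depth, centring, thresholds and the lesional cells used.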

Additional observations from a re-analysis of the deposited data

Results flagged for a closer look

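Cxcl14 differed in opposite directions between cell classes in lesional skin against nonlesional epidermis. The difference in log2(CPM + 5) was 0.64 in keratinocytes and -1.63 in T cells and ILCs; the difference between the classes was not tested. The nonlesional T cells and ILCs held Cxcl14 at 15.7% of the keratinocyte level, where 6 keratinocyte genes stood at 17.2% to 23.2%.

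Cxcl16 was likewise lower in lesional than in imiquimod T cells and ILCs, by -1.72 on that scale, and higher in macrophages and monocytes, at 0.73, with the difference between classes again not tested. The T cell values were 6 and 55 UMIs, and 6 macrophage genes stood in imiquimod T cells and ILCs at 6.76% to 14.8% of the macrophage level.

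Transcripts also appeared in cells outside the comparisons. In imiquimod dermis, 3461 Cxcl14 UMIs, 47.2% of the library's, came from 31 cells of an unnamed cluster led by the cartilage genes Cytl1, Chad and Ucma, with 91.0% of them in 5 cells. In untreated dermis, 10 keratinocytes held 40 Ccl20 and 27 Ccl27a UMIs, and 16 fibroblasts held 87 Cxcl14 UMIs.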

How the results depend on the processing

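Of 133 counts recomputed under an alternative, 108 stayed within 1.5 times the reported count. Such a count does not show which members were called, or in which direction. Clusters 15 and 25 kept the count of 2 for nonlesional against untreated keratinocytes, but not the pair Ccl27a and Cxcl14. Cluster 15 called Ccl27a and Ccl20 higher, and cluster 25 called Cxcl14 higher and Ccl20 lower. Of the other values recomputed, 351 were rated as the same, 152 as moved and 1 as reversed. For nonlesional against untreated keratinocytes (2 called), the count was 0 with a 2-fold threshold, 1 within clusters 13 and 14, 0 within clusters 28 and 30, and 1 without cells under 0.1% mitochondrial UMIs. For lesional against nonlesional keratinocytes (3 called), it was 1 within cluster 14, where Cxcl14 turned to -0.17 on the log2(CPM + 5) scale. Thinning to 2000 UMIs gave 1 in T cells and ILCs of untreated epidermis against dermis (from 2), 1 in those of imiquimod against untreated dermis (from 3), 0 in macrophages of that comparison (from 2) and of lesional skin against imiquimod dermis (from 1), and 0 in dendritic cells (from 2). It also lowered the number of class and library shares of at least 10% of cells from 47 to 30. The 2-fold threshold gave 1, 1, 1 and 0 for T cells and ILCs of imiquimod against untreated dermis, those of lesional skin against imiquimod dermis, and macrophages in the same 2 comparisons. The regulatory T-like cells gave 1 for lesional skin against imiquimod dermis. Without doublet removal, dendritic cells gave 1 and fibroblasts 3 (from 1). Fibroblasts gave 0 with classes assigned per cell, 2 with centred ratios, 0 with Xist-only and 2 with Y-linked-only lesional cells, and Xist-only lesional macrophages gave 0. The causes were not tested. Fewer UMIs were left by thinning. The cluster, mitochondrial and lymphocyte settings were chosen after seeing the data. Dendritic cells with per-cell classes, and type 17 cells of imiquimod against untreated dermis, were not run because a library had too few cells. No paired analysis was possible because each group had 1 library. Ccr10, at 2 to 26 UMIs per library, was compared in no setting.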
